A study of Mus musculus with 12 samples.

Results

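The genes described here code for the Z-disc and other support proteins of the heart muscle sarcomere: the scaffold and cross-linkers of the Z-disc, its PDZ-LIM and LIM proteins, actin-binding proteins, the desmin intermediate filament with its partners and chaperones, the muscle ring finger ligases, and proteins tied to titin. The 34 members were chosen by name for these functions, with earlier results of these data known. Of them, 33 had at least 1 named probe on the array, on 75 probe IDs. Probe IDs with the same value on every array were counted as 1 feature, which left 38 member features among the 30854 features of the array. Trim55 was the member with no named probe and was not analysed here.

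RNA was taken from whole hearts of female FVB/N mice 3 weeks old and hybridized to Illumina MouseWG-6 v2.0 bead arrays, 1 array per heart. The MHC-CELFΔ transgene codes for a CELF protein with dominant negative action that is held in the nucleus, and an α-myosin heavy chain promoter drives it in cardiomyocytes and not in the other cells of the heart. Mice of the severe line (MHC-CELFΔ-10, 3 arrays) and of the mild line (MHC-CELFΔ-574, 3 arrays) were hemizygous for the transgene, and each line was accompanied by 3 wild type littermates, which carry no transgene. The question was how the loss of CELF splicing activity changes gene expression in heart muscle at weaning. Each line stands for its own transgene insertion, so that insertion site and severity cannot be told apart.

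The Z-disc anchors the thin filaments of neighbouring sarcomeres and the ends of titin. Alpha-actinin cross-links the actin there, and PDZ-LIM and LIM proteins dock on alpha-actinin and titin. Desmin filaments tie Z-discs to each other and to the membrane, chaperones such as alpha-B-crystallin keep desmin and filamin folded, and ring finger ubiquitin ligases mark sarcomere proteins for removal. Mutations in many of these genes cause cardiomyopathy or myofibrillar myopathy.

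Levels are given as log2 of the background-corrected and quantile-normalized probe signal, and differences as log2 differences with the standard error (SE) of the limma fit. A feature was called changed at an adjusted p below 0.05 over all features. Probes differ in brightness, so that the level of one gene is not set against that of another. The median raw signal of the arrays ran from 102.8 to 118.8, and the correlation between any pair of arrays over all features was at least 0.9849. A probe for Celf4, a gene of the CELF family, was higher by 5.73 in the mild and by 5.56 in the severe line, while the 3 other Celf4 features differed from wild type by no more than 0.12 in either direction. Of 8 cardiomyocyte markers, 7 had a probe and none lay near the array median, and 11 of 12 skeletal muscle markers on the array lay within 0.5 of the array median of 6.28 or below it. Because the tissue was whole heart, fewer cells of a type and less RNA per cell cannot be told apart.

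In the mild line, 18 of the 38 member features were called, 14 higher and 4 lower than in wild type, where 3.55% of all features were called (1.62% higher and 1.93% lower). In the severe line, 11 were called, 9 higher and 2 lower, against 3.3% of all features (1.75% higher and 1.56% lower). Changes of at least 2-fold were seen in 6 members in the mild line (0.269% of all features) and in 1 in the severe line (0.136%). The median difference of the members was 0.16 in the mild and 0.03 in the severe line, beside 0.00 over all features in both. Features brighter than the median wild type level were called more often, in 6.88% of cases in the mild and 6.31% in the severe line, and all but 7 members were of that kind. The lines were compared with the same wild type arrays, so that their counts are not independent.

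The called members were 19 genes in all. Both lines called 10 of them, 8 higher (Fhl1, Pdlim1, Synpo2l, Xirp2, Des, Flnc, Myot and Ankrd23) and 2 lower (Crip2 and Cmya5), and none in opposite directions. The mild line alone called 8 (Abra, Synpo2, Cryab, Trim54, Actn2 and Nrap higher, Tcap and Trim63 lower), and the severe line alone called Pdlim7. The shares of all features called in both lines or in a single line were not counted. The 3 mild arrays did not overlap the 6 wild type arrays in 20 member features, and the 3 severe arrays did not in 11, beside 7.52% and 7.21% of all features. The 16 members with the largest differences are shown array by array in the plot of levels.

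**Figure D1:**
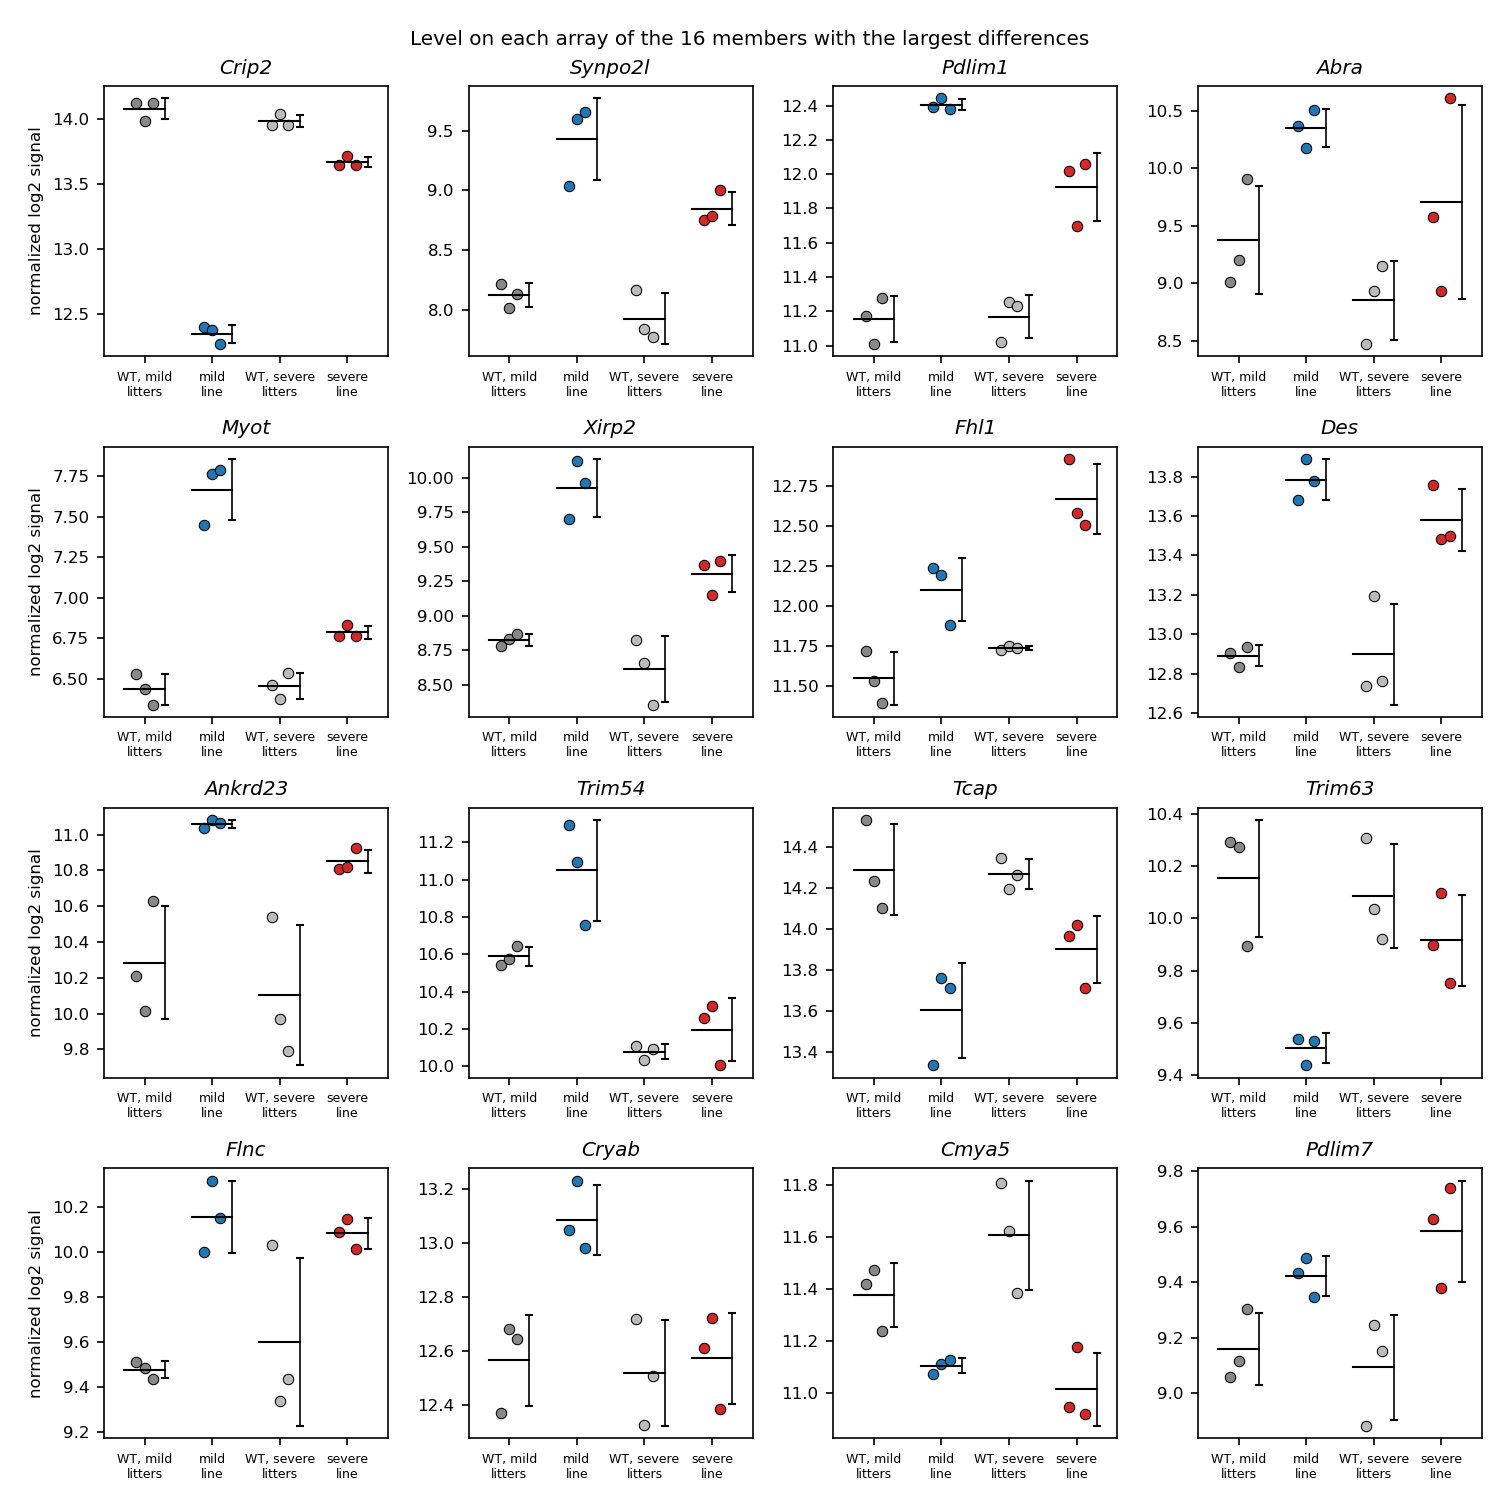
Normalized log2 signal (vertical axis, scaled separately for each gene) of the 16 called members with the largest difference from wild type, on each of the 12 arrays. Points are single hearts, horizontal bars group means and error bars SD (n = 3). Crip2 in the mild line sits between 12.27 and 12.40, below every wild type array, while Fhl1 is highest in the severe line, between 12.51 and 12.92.

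Among the LIM and PDZ-LIM proteins, Crip2 fell and Fhl1 and Pdlim1 rose in both lines, whereas Csrp3 (muscle LIM protein), Ldb3 (ZASP or Cypher), Pdlim3 and Pdlim5 were not called. Crip2 codes for a small cysteine-rich LIM protein. Its level in the 6 wild type hearts was 13.96 at the lowest, 14.01 at the median and 14.13 at the highest, in mild hearts 12.40, 12.38 and 12.27, and in severe hearts 13.65, 13.71 and 13.65. The groups did not overlap, and the severe hearts lay between the wild type and the mild hearts. Crip2 fell by 1.68 in mild hearts (SE 0.066, adjusted p = 7.3e-12), a 3.2-fold decrease and the largest difference of any member in either line, and by 0.36 in severe hearts (adjusted p = 0.00306). Scaled to array medians instead, the severe difference was -0.58 (adjusted p = 5.0e-04), while an offset of 16 in the background step ended the call (-0.36, adjusted p = 0.0618).

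Fhl1, a LIM protein that binds titin near its elastic region, moved the other way and more in the severe line. It stood between 11.39 and 11.75 (median 11.72) in wild type, at 12.24, 12.19 and 11.88 in the mild line and at 12.92, 12.58 and 12.51 in the severe line. Every mild heart was above every wild type heart and every severe heart above every mild heart. The rise was 1.03 in severe hearts (adjusted p = 8.9e-06), or 2.04-fold, the only change of a member past 2-fold there, and 0.46 in mild hearts (SE 0.105, adjusted p = 0.0161). The mild call was lost without mild replicate 1 (0.39, adjusted p = 0.127) or mild replicate 2 (0.41, adjusted p = 0.121).

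Pdlim1 (CLP36), a PDZ-LIM protein that binds alpha-actinin, was higher in both lines. Wild type hearts lay between 11.01 and 11.28 (median 11.20), mild hearts at 12.39, 12.44 and 12.38 and severe hearts at 12.02, 11.70 and 12.06, without overlap between any of the groups. It rose by 1.25 in the mild (SE 0.0855, adjusted p = 2.9e-08) and 0.76 in severe hearts (adjusted p = 2.7e-05). Pdlim7 (Enigma), of the same family, was called in the severe line alone, at 9.63, 9.38 and 9.74 beside 8.88 to 9.30 (median 9.13) in wild type, a rise of 0.46 (adjusted p = 0.00696). In the mild line it read 9.43, 9.49 and 9.35 and differed by 0.30 (95% interval 0.10 to 0.49, adjusted p = 0.0987). The severe call was lost without severe replicate 1 (0.43, adjusted p = 0.0566) or severe replicate 3 (0.38, adjusted p = 0.0692), when arrays were scaled to their medians (0.33, adjusted p = 0.174) or the offset was lowered to 16 (0.48, adjusted p = 0.0533). The second Pdlim7 feature, near the array median with 5.87 to 6.13 in wild type, 6.01 to 6.07 in the mild and 6.02 to 6.31 in the severe line, was called in neither.

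The other 4 genes of the family were called in neither line. Csrp3 differed by -0.07 (95% interval -0.24 to 0.09) in the mild and -0.04 (-0.20 to 0.13) in the severe line, and Pdlim3 by 0.12 (-0.10 to 0.34) and 0.04 (-0.18 to 0.26). Ldb3 differed by 0.20 in the mild line (0.06 to 0.34, adjusted p = 0.131), where its 3 arrays lay above all wild type arrays, and by 0.02 in the severe line. Pdlim5 differed by -0.08 in the mild and by 0.27 in the severe line (0.09 to 0.46, adjusted p = 0.121).

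Sequence before the start of the LIM genes is shown because 2 of them hold a CArG box, the site bound by serum response factor, which drives many sarcomere genes. RefSeq promoter windows of 300 bases (250 before to 50 after each start, GRCm38.p6) were found for 27 of the 34 members, 39 windows in all. A CArG box of 10 letters, CC and GG around 6 bases that are each A or T, was searched on both strands and stood in 4 of these windows, of Fhl1, Ldb3 and Nebl, and in 1.629% of all 32851 windows. The same Ldb3 box lies in 2 overlapping windows and is counted in both. Capitals mark the box, and both sequences read along the gene.
Fhl1, chrX:56779571-56779600, plus strand: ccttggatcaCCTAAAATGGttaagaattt
Ldb3, chr14:34588697-34588726, minus strand: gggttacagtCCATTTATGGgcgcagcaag
Fhl1 was called in both lines and Ldb3 and Nebl in neither, but both Nebl features lay near the array median. A match is a string of letters in the window, and its absence elsewhere says nothing about the factor.

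Of the 5 actin-binding features, 4 rose in the mild line (3.55% of all features called) and 2 in the severe line (3.3%), and Lmod2 was called in neither. Synpo2l (CHAP), a Z-disc protein that binds alpha-actinin, stood between 7.77 and 8.22 (median 8.08) in wild type, at 9.04, 9.60 and 9.65 in the mild line and at 8.75, 8.79 and 9.01 in the severe line. No group overlapped another. The rise was 1.40 in mild hearts (SE 0.124, adjusted p = 7.9e-07), or 2.64-fold, and 0.82 in severe hearts (adjusted p = 5.2e-04).

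Xirp2 (myomaxin), an actin-binding protein of the Z-disc and intercalated disc, read 8.36 at the lowest, 8.80 at the median and 8.87 at the highest in wild type, 9.70, 10.12 and 9.96 in mild hearts and 9.37, 9.15 and 9.39 in the severe line. All transgenic hearts were above all wild type hearts, and all mild above all severe hearts. It rose by 1.21 in the mild (SE 0.108, adjusted p = 9.3e-07) and 0.58 in severe hearts (adjusted p = 0.00369). The severe call was lost when the arrays were scaled to their medians (0.45, adjusted p = 0.0729).

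Abra (STARS), which promotes actin polymerization, was the most variable member. It ranged from 8.47 to 9.91 (median 9.08) in wild type and read 10.37, 10.18 and 10.51 in mild hearts and 9.58, 8.93 and 10.61 in the severe line. The mild hearts lay above all wild type hearts, while the severe hearts spread across both. It rose by 1.24 in mild hearts (SE 0.274, adjusted p = 0.0127), a call lost without mild replicate 1 (1.23, adjusted p = 0.0585), without mild replicate 3 (1.16, adjusted p = 0.0811) or against its own littermates (0.98, adjusted p = 0.122), and differed by 0.59 in the severe line (95% interval 0.02 to 1.17, adjusted p = 0.35). Synpo2 (myopodin) lay near the array median and was called in the mild line at 0.32 (adjusted p = 0.0139), a call lost without mild replicate 2 (0.28, adjusted p = 0.123) or mild replicate 3 (0.29, adjusted p = 0.0978) or against its own littermates (0.28, adjusted p = 0.104) and sized 0.49 with an offset of 16 (adjusted p = 0.0315). Lmod2 (leiomodin), an actin nucleator that sets thin filament length, lay near the array median too and had intervals from -0.36 to 0.13. A change of a gene with so dim a probe could be missed.

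The promoter windows of this set are shown for the MEF2 site, the A and T rich motif of the MEF2 factors of muscle. Searched on both strands, a MEF2 site of 10 letters stood in 7 of the 39 member windows, of Capn3, Myoz2, Synpo2, Synpo2l, Ttn and Xirp2, and in 3.187% of all windows. It does not overlap the CArG boxes above. Capitals mark the site in the 3 actin-binding genes and, for comparison, in Ttn.
Synpo2l, chr14:20664699-20664728, minus strand: tggctcaggtTTATTTTTAGccaggcagac
Synpo2l, other start, chr14:20668444-20668473, minus strand: gaaatttgtaCTATAATTAGttctaggagt
Synpo2, chr3:123236366-123236395, minus strand: agcccggctaCTATTTATAGaataattaaa
Xirp2, chr2:67445918-67445947, plus strand: agctcagttcCTAAAAATAGgtgctaggtt
Ttn, chr2:76982694-76982723, minus strand: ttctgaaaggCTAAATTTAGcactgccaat
Of the 6 genes, Synpo2, Synpo2l and Xirp2 were called in the mild line and Capn3, Myoz2 and Ttn in neither line. The Capn3 feature lay near the array median.

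Within the desmin filament and its partners, Des rose in both lines, Cryab in the mild line alone, and Cmya5 fell. Des, the muscle intermediate filament protein desmin, stood between 12.74 and 13.19 (median 12.87) in wild type, at 13.68, 13.89 and 13.78 in the mild and at 13.76, 13.48 and 13.50 in the severe line. Both transgenic groups lay above all wild type hearts and overlapped each other. The rise was 0.89 in the mild (SE 0.0942, adjusted p = 8.0e-06), or 1.85-fold, and 0.68 in severe hearts (adjusted p = 2.1e-04).

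Cryab codes for alpha-B-crystallin, a small heat shock protein that binds desmin. Its levels were 12.33 at the lowest, 12.58 at the median and 12.72 at the highest in wild type, 13.05, 13.23 and 12.98 in mild hearts and 12.61, 12.72 and 12.39 in the severe line. Mild hearts were above all the others, and severe hearts lay among the wild type hearts. It rose by 0.54 in mild hearts (adjusted p = 0.00206) and differed by 0.03 in the severe line (95% interval -0.17 to 0.24). Bag3, the co-chaperone that directs damaged filamin to autophagy, missed the threshold in the mild line at 0.30 (0.13 to 0.47, adjusted p = 0.0504), although its 3 mild arrays lay above all wild type arrays, and differed by 0.03 in the severe line (-0.14 to 0.20).

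Cmya5 (myospryn), a desmin-binding protein, had a bright and a dim feature. The bright one ranged from 11.24 to 11.81 (median 11.45) in wild type and read 11.07, 11.11 and 11.13 in the mild and 10.95, 11.17 and 10.92 in the severe line, below all wild type hearts in both. It fell by 0.39 in the mild (adjusted p = 0.0344) and 0.48 in severe hearts (adjusted p = 0.0089). The dim one, at 6.27 to 6.58 in wild type, 6.41 to 6.74 in the mild and 6.14 to 6.45 in the severe line, was called in neither (0.11 and -0.14). Averaged, the 2 features gave -0.14 (adjusted p = 0.521) and -0.31 (adjusted p = 0.0391). The mild call of the bright feature was lost without any 1 of the 3 mild hearts (-0.40 to -0.37, adjusted p from 0.108 to 0.147), without mild littermate replicate 2 (-0.39, adjusted p = 0.0549) or severe littermate replicate 2 (-0.36, adjusted p = 0.0647), and against its own littermates (-0.27, adjusted p = 0.28), and the severe call without severe replicate 1 (-0.44, adjusted p = 0.0738) or replicate 3 (-0.43, adjusted p = 0.0674).

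The ring finger ligases moved in opposite directions in the mild line and were not called in the severe line. Trim63 (MuRF1), a ubiquitin ligase of thick filament proteins, stood between 9.90 and 10.31 (median 10.15) in wild type, at 9.54, 9.44 and 9.53 in the mild and at 9.90, 10.10 and 9.75 in the severe line. Mild hearts were below all others. Trim63 fell by 0.62 in mild hearts (SE 0.101, adjusted p = 8.4e-04) and differed by -0.20 in the severe line (95% interval -0.42 to 0.01).

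Trim54 (MuRF3), which associates with microtubules and the Z-disc, differed between the litters themselves. Littermates of the mild line read 10.54, 10.58 and 10.65 and those of the severe line 10.11, 10.03 and 10.09, a difference of 0.51 between wild type hearts that did not overlap (adjusted p = 0.1). Mild hearts read 11.29, 11.10 and 10.76, above all wild type hearts, and severe hearts 10.26, 10.32 and 10.00. Against all wild type hearts Trim54 rose by 0.72 in mild hearts (SE 0.142, adjusted p = 0.00502), and against its own littermates by 0.46 (adjusted p = 0.0353). The call was lost without mild replicate 1 (0.59, adjusted p = 0.0581), and the severe line differed by -0.14 (95% interval -0.43 to 0.16).

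Of the 14 features of the Z-disc scaffold, 4 rose and 1 fell in the mild line (3.55% of all features called), and 2 rose in the severe line (3.3%). Myot (myotilin), which cross-links actin and binds alpha-actinin and filamin, rose most. It read between 6.34 and 6.53 (median 6.45) in wild type, 7.45, 7.76 and 7.79 in the mild and 6.76, 6.83 and 6.76 in the severe line, without overlap between any groups. The rise was 1.22 in mild hearts (SE 0.0779, adjusted p = 1.0e-08) and 0.34 in severe hearts (adjusted p = 0.0182), where the call was lost without any 1 of the 3 severe hearts (0.32 to 0.35, adjusted p from 0.0597 to 0.0824) and against its own littermates (0.33, adjusted p = 0.0762). Wild type Myot lay near the array median, where signal above background cannot be told from these files, so that its fold change depends on the background treatment: with an offset of 16 its severe difference was 0.52 (adjusted p = 0.0291), and its mild difference ran from 0.98 to 1.67 over all alternatives.

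Flnc (filamin C), an actin cross-linker of the Z-disc, rose in both lines. Mild hearts stood at 10.00, 10.32 and 10.15 and severe hearts at 10.09, 10.15 and 10.01, and wild type hearts between 9.34 and 10.03 (median 9.46). The overlap came from littermate replicate 1 of the severe line at 10.03, the other 5 lying at or below 9.51. The difference was 0.61 in the mild (adjusted p = 0.0031) and 0.54 in severe hearts (adjusted p = 0.0108), the latter lost without severe replicate 1 (0.54, adjusted p = 0.0614) or replicate 2 (0.51, adjusted p = 0.0541) and against its own littermates (0.48, adjusted p = 0.0735).

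Tcap (telethonin), the cap that joins the ends of titin in the Z-disc, went the other way. It ranged from 14.10 to 14.53 (median 14.25) in wild type and read 13.33, 13.76 and 13.71 in the mild and 13.97, 14.02 and 13.71 in the severe line. All 6 transgenic hearts were below all 6 wild type hearts. Tcap fell by 0.68 in mild hearts (SE 0.104, adjusted p = 4.3e-04). In the severe line the difference was -0.38 (95% interval -0.60 to -0.16, adjusted p = 0.0533), which passed the threshold when the arrays were scaled to their medians (-0.57, adjusted p = 0.00488) and without mild replicate 1 (adjusted p = 0.0271), mild littermate replicate 3 (adjusted p = 0.0432) or severe littermate replicate 2 (adjusted p = 0.0497).

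Actn2, the alpha-actinin of the heart, and Nrap, a nebulin-related protein of myofibril assembly, were called in the mild line at 0.27 (adjusted p = 0.0412) and 0.40 (adjusted p = 0.0456), close to the threshold. Without mild replicate 2, Actn2 gave 0.21 (adjusted p = 0.3) and Nrap 0.38 (adjusted p = 0.185), and both calls were also lost without mild replicate 1 (0.28 and 0.39, adjusted p = 0.121 and 0.15). Actn2 was further lost without any 1 of the mild littermates, severe littermate replicate 1 or 3, or severe replicate 3 (0.26 to 0.28), and Nrap without mild replicate 3, mild littermate replicate 1, any 1 of the severe littermates, or severe replicate 2 (0.33 to 0.41). Median scaling ended both calls (adjusted p = 0.1 for Actn2 and 0.177 for Nrap), as did own littermates that of Nrap (0.30, adjusted p = 0.301). The second Actn2 feature, near the array median with 6.40 to 6.84 in wild type, 6.67 to 6.90 in the mild and 6.49 to 6.64 in the severe line, was called in neither line (0.15 and -0.04), and the average of both gave 0.21 in mild hearts (adjusted p = 0.149). Titin itself was not called. Its bright feature differed by 0.09 (95% interval -0.09 to 0.28) in the mild and -0.06 (-0.24 to 0.12) in the severe line. Myoz2 (calsarcin-1), which tethers calcineurin to the Z-disc, differed by 0.26 (0.04 to 0.48) in the mild and -0.17 (-0.39 to 0.05) in the severe line, and by 0.08 and 0.01 against its own littermates, since its level was higher in littermates of the mild line (12.44 to 12.53) than in those of the severe line (11.94 to 12.31). Mypn, Myoz1, Neb and both Nebl features were called in neither line. All of these but Mypn lay near the array median, so that a change of these genes could be missed.

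Of the 3 titin-linked members, Ankrd23 (DARP), a stretch-responsive ankyrin repeat protein bound to titin, rose in both lines. Wild type hearts ranged from 9.79 to 10.63 (median 10.11), mild hearts read 11.04, 11.08 and 11.06 and severe hearts 10.81, 10.82 and 10.92. Both transgenic groups were above all wild type hearts and tighter than them. The rise was 0.87 in the mild (SE 0.138, adjusted p = 6.3e-04) and 0.66 in severe hearts (adjusted p = 0.00954), which was lost without severe replicate 3 (0.62, adjusted p = 0.06) and once arrays were scaled to their medians (0.49, adjusted p = 0.0742). Ankrd2 and the protease Capn3 lay near the array median and were not called, with intervals from -0.22 to 0.41.

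**Figure D2:**
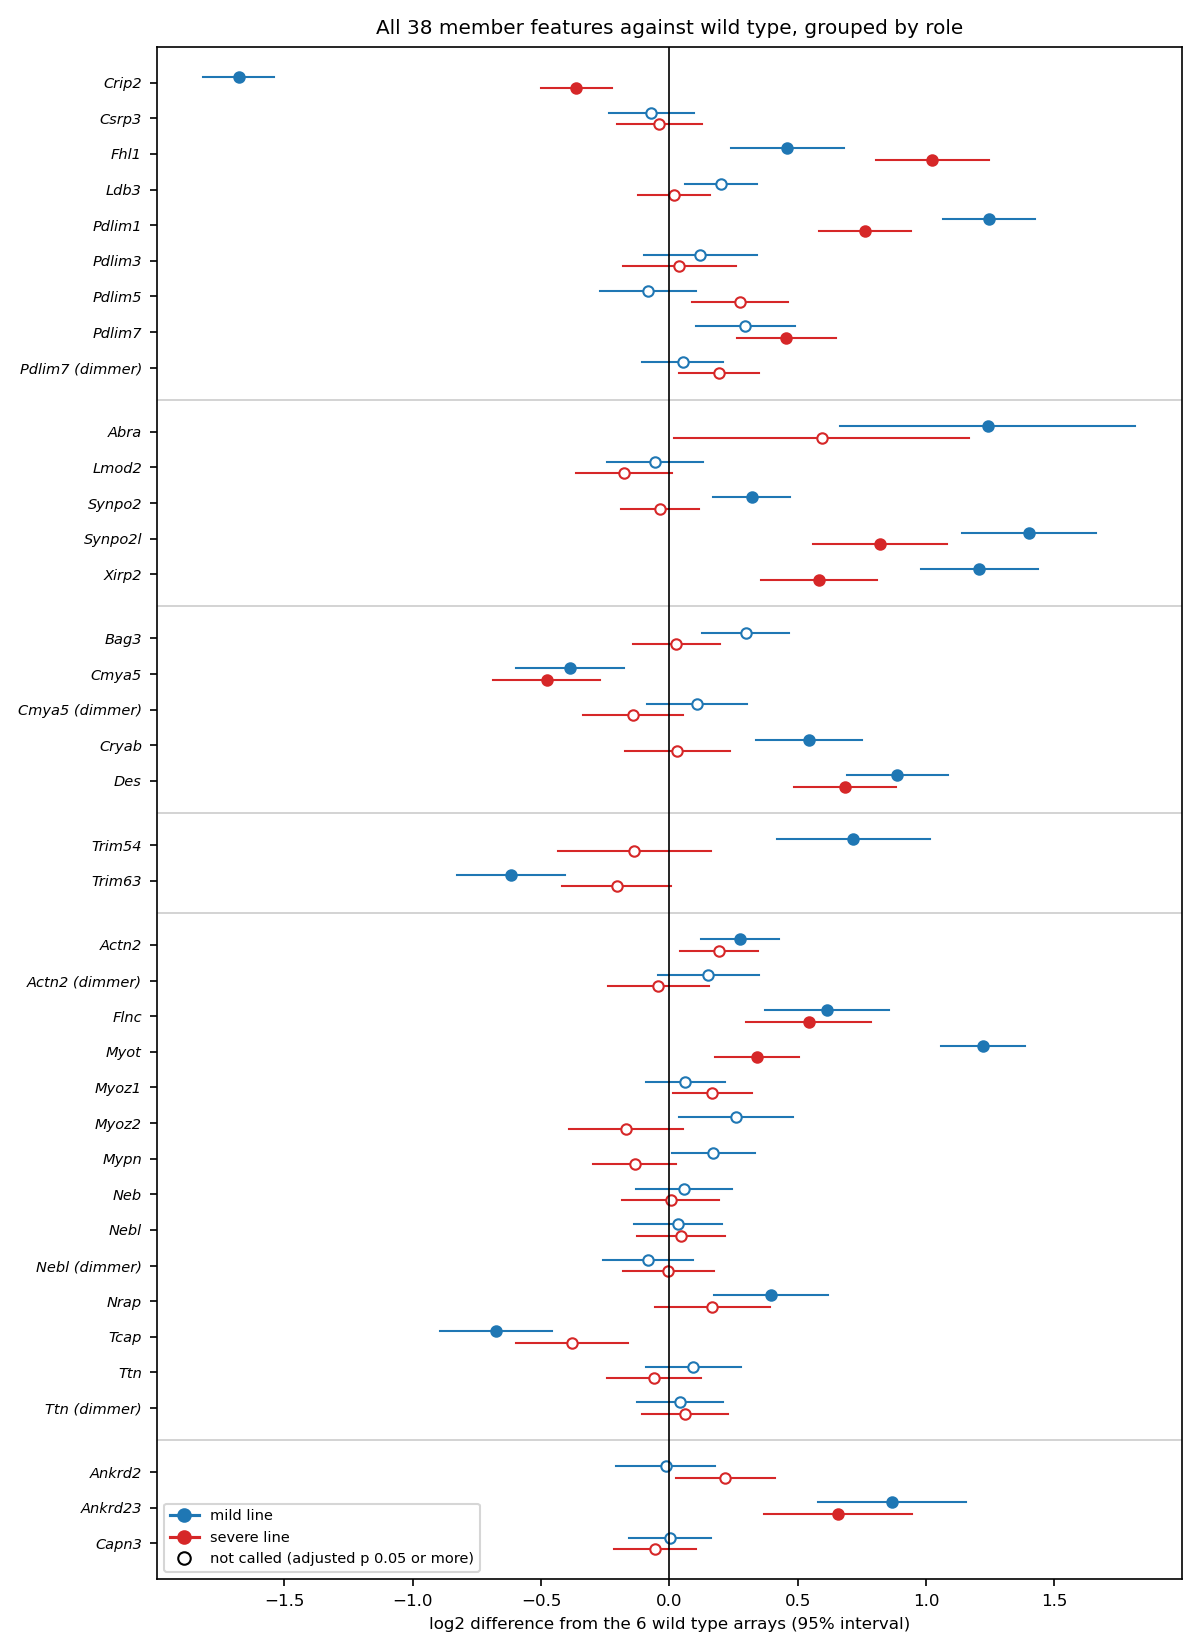
Log2 difference from the 6 wild type arrays (horizontal axis) of all 38 member features in the mild (blue) and severe line (red), grouped by role, with 95% intervals as lines. Filled points were called at an adjusted p below 0.05; a second, dimmer feature of a gene is marked as such, and Crip2, at -1.68 in the mild line, lies farthest from 0.

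The 19 member features called in neither line differed from wild type by -0.18 to 0.30, and their 95% intervals ran from -0.39 to 0.48. In 13 member features the wild type mean lay within 0.5 of the array median or below it (5.91 to 6.63), and 2 of them, Myot and Synpo2, were called in a line. Of the 25 brighter ones, 17 were called in a line. Of all features above the median wild type level, 6.88% were called in the mild and 6.31% in the severe line. The share of them called in either line was not counted.

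The severe and mild lines were then compared directly. Of the 38 features, 8 were called, beside 1.37% of all features (0.771% higher and 0.596% lower in the severe line): Crip2 and Fhl1 were higher in the severe line, and Pdlim1, Synpo2, Xirp2, Cryab, Trim54 and Myot were lower. A direct comparison also holds any difference between litters, which the same comparison relative to each line's own littermates removes. That second comparison called Crip2, higher in the severe line by 1.41 (95% interval 1.19 to 1.63, adjusted p = 6.2e-07), and Myot, lower by 0.90 (interval of the difference -1.17 to -0.63, adjusted p = 0.0021), and none of the other 6, beside 0.266% of all features.

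Crip2 differed by 1.32 between the transgenic arrays themselves (adjusted p = 6.7e-09) and Myot by -0.88 (adjusted p = 1.4e-05), so that both values changed little. For Trim54 the direct difference of -0.85 (adjusted p = 0.0104) became -0.34 (95% interval -0.68 to -0.01, adjusted p = 0.681). For Fhl1 it went from 0.57 (adjusted p = 0.0228) to 0.38 (0.03 to 0.72, adjusted p = 0.634), for Xirp2 from -0.62 (adjusted p = 0.0142) to -0.41 (-0.76 to -0.06, adjusted p = 0.577), and for Synpo2 from -0.36 (adjusted p = 0.0389) to -0.27 (-0.52 to -0.03, adjusted p = 0.618). With an offset of 16 the direct Synpo2 difference was -0.55 (adjusted p = 0.0833). Pdlim1 (-0.48, adjusted p = 0.0169) and Cryab (-0.51, adjusted p = 0.0264) kept sizes of -0.50 and -0.47 with wider intervals (-0.80 to -0.20 and -0.81 to -0.12).

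Of the 8 direct calls, 6 were lost when some 1 heart was left out. Leaving out any 1 transgenic heart also lowered the number of direct calls over all features. Some lost calls kept nearly the same size, as Pdlim1 did without any 1 of the mild hearts, while others shrank. Whether a call was lost through the values of that heart or through the smaller group was not tested. Fhl1 was not called without severe replicate 1 (0.44, adjusted p = 0.147) or mild replicate 3 (0.45, adjusted p = 0.15), Trim54 without severe replicate 3 (-0.76, adjusted p = 0.0571) or mild replicate 1 (-0.73, adjusted p = 0.066), and Xirp2 without severe replicate 2 (-0.55, adjusted p = 0.0748), mild replicate 2 (-0.53, adjusted p = 0.0854) or mild replicate 3 (-0.61, adjusted p = 0.0736). Pdlim1 was not called without severe replicate 2 (-0.37, adjusted p = 0.0857) or any 1 of the mild hearts (-0.49 to -0.46, adjusted p from 0.0552 to 0.0705). Cryab was lost without severe replicate 1 or 3 or any 1 of the mild hearts (-0.57 to -0.42), and Synpo2 without any 1 of the severe hearts, mild replicate 2 or 3, or mild littermate replicate 2 (-0.39 to -0.32). The calls of Crip2 and Myot did not depend on any 1 heart. Synpo2l came near the threshold at -0.58 (adjusted p = 0.0518) and passed it without mild replicate 1 (-0.78, adjusted p = 0.00357), without severe littermate replicate 2 (-0.58, adjusted p = 0.0467) or replicate 3 (-0.58, adjusted p = 0.0431).

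**Figure D3:**
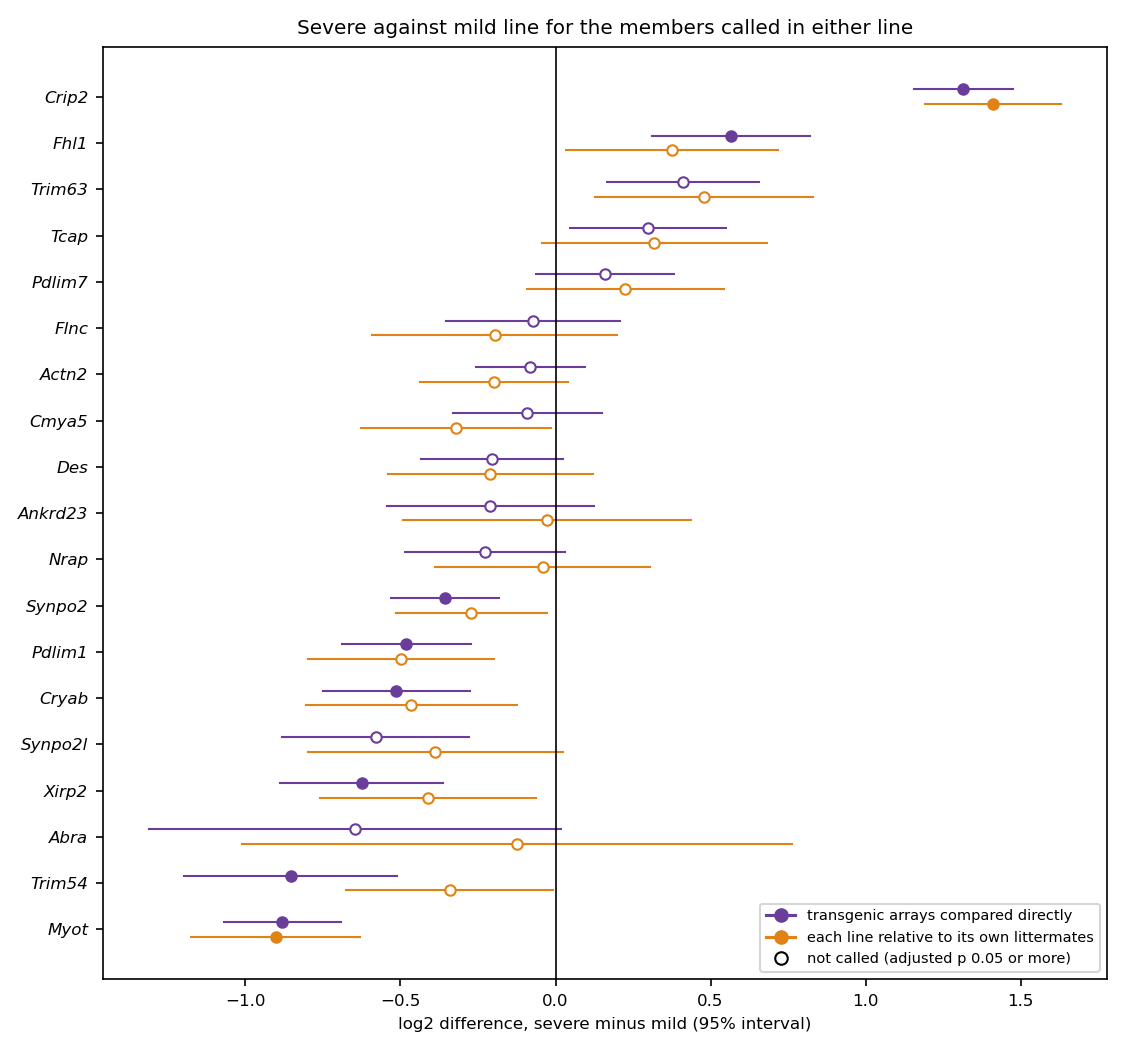
Log2 difference of the severe minus the mild line (horizontal axis, 95% intervals as lines) for the 19 members called in either line, between the transgenic arrays directly (purple) and with each line set against its own littermates (orange). Filled points were called; in the orange series those are Crip2 at 1.41 and Myot at -0.90.

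Between the 2 sets of wild type littermates no member feature was called by limma, beside 0.0875% of all features, and 4 of the 38 had an unadjusted p below 0.05, as did 3074 of all 30854 features, a like share: Trim54 (-0.51, severe minus mild litters), Myoz2 (-0.37), Cmya5 (0.23, the bright feature) and the dim Ttn feature (0.20). Trim54 was called without mild replicate 3 (-0.51, adjusted p = 0.0473).

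A wider list of 49 other Z-disc and sarcomere support genes, of which 43 were on the array, moved in both directions: 9 rose and 5 fell in the mild line, and 6 rose and 2 fell in the severe line, where 3.55% and 3.3% of all features were called. Fhl2, a LIM protein of the same family as Fhl1 and found at the Z-disc, fell by 1.67 in the mild (adjusted p = 3.1e-11) and 0.70 in severe hearts (adjusted p = 9.0e-06), while Fhl1 rose in both. Further decreases in the mild line were Pdlim4 (-0.81), Csrp2 (-0.63), Tmod4 (-0.51), which code for a PDZ-LIM protein, a LIM protein and a cap of the thin filament, besides 1 smaller decrease, and Tmod4 was the other gene to fall in the severe line (-0.68). Klhl40, a partner of leiomodin and nebulin, rose by 1.17 in the mild and 0.95 in the severe line, and the actin-binding protein Synpo by 0.71 and 0.86.

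Of the 6 small heat shock genes on this list, which were set apart after their values were seen, 4 were called higher in the mild line, as Cryab was (3.55% of all features called). Hspb1 rose by 0.79, Hspb3 by 0.71, Hspb7 by 0.68 and Hspb6 by 0.35 there, with adjusted p from 6.4e-04 to 0.011, while Hspb2 (0.20) and Hspb8 (0.18) were not called. Against its own littermates Hspb6 was not called (0.29, adjusted p = 0.0965). In the severe line Hspb1 rose by 0.68 (adjusted p = 0.00454), while Hspb3 (0.26), Hspb7 (0.14) and Hspb6 (0.13) were not called. Hspb1 differed by -0.50 between the wild type litters (severe minus mild litters, adjusted p = 0.0563). Against own littermates Hspb1 rose by 0.54 in the mild and 0.93 in the severe line. Its severe minus mild difference was not called directly (-0.11, adjusted p = 0.849) or against own littermates (0.39, adjusted p = 0.449). Actn1, the non-muscle alpha-actinin, was called in the severe line at 0.56 (adjusted p = 1.5e-04), and Ankrd1 (CARP), of the same titin-bound family as Ankrd23, at 0.66 (adjusted p = 0.0426). Ankrd1 was not called in the mild line (0.48). It differed by -0.55 between the litters (adjusted p = 0.212), and against own littermates by 0.21 in the mild and 0.94 in the severe line. The lines were not called different in Ankrd1 directly (0.18, adjusted p = 0.8) or against own littermates (0.73, adjusted p = 0.351).

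Markers of other heart cells and chambers moved with the lines as well. Over all features, 3.55% were called in the mild line (1.93% lower) and 3.3% in the severe line. Of 7 atrial markers, 5 were lower in the mild line (Sln by -1.85, Myl7 by -1.84, Dkk3 by -1.08, Myl4 by -0.71 and Stard10 by -0.47). Nppa, with the highest signal of the 7 (15.18 in wild type), differed by 0.05 and was not called, nor was Bmp10 (-0.26), which lay near the array median. None of the 7 was called in the severe line. Their summed signal was 71468 to 78618 in wild type, 56222 to 62093 in the mild and 70851 to 73318 in the severe line. Crip2, Tcap, Trim63 and Cmya5 were likewise lower in the mild line than in wild type, and the part of the atrial signal in their differences was not tested. The summed signal of 5 smooth muscle markers was 6257 to 6724 in mild littermates, 5407 to 5627 in the mild line, 8666 to 8770 in severe littermates and 9576 to 12453 in the severe line. Of the 5, Acta2 was called at -0.56 in the mild and 0.61 in the severe line and Tagln at 0.70 in the severe line, while Myh11 (0.09 and 0.04), Smtn (-0.14 and -0.07) and Cnn1 (-0.06 and -0.03) were called in neither. The sums thus follow Acta2 for the most part, and Cnn1 and Tagln lay near the array median in wild type. The part of this signal in the severe line rises of Fhl1, Pdlim7 and Actn1 was not tested.

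The summed signal of 7 cardiomyocyte markers was 108821 to 117118 in wild type, 105402 to 113394 in the mild and 110264 to 116745 in the severe line, and Ryr2 and Pln fell in both lines. For 12 skeletal muscle markers it was 1058 to 1210, 1081 to 1179 and 1074 to 1116. Of the fibroblast markers, summing to 7998 to 9629, 8978 to 11903 and 10012 to 10563, only Col1a1 was called (0.48, severe line). Of 5 endothelial and 4 macrophage markers none was called by limma.

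**Figure D4:**
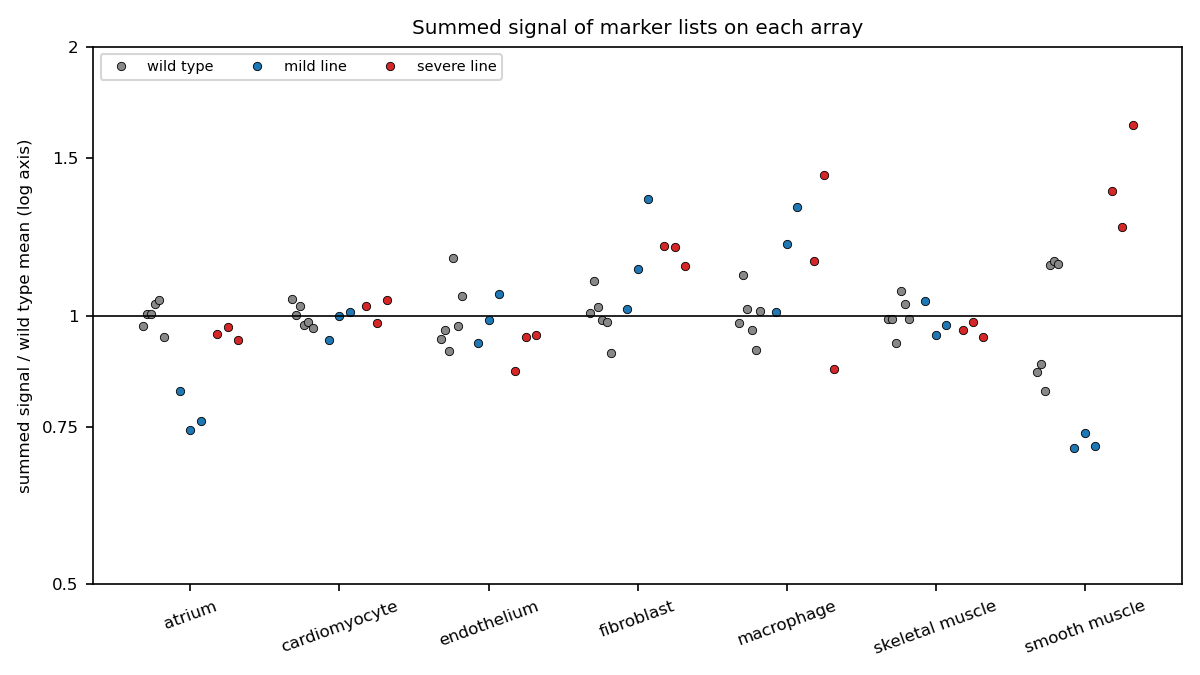
Summed signal of each marker list on each array, divided by its wild type mean (vertical axis, log scale; points are single hearts). In the mild line the atrial sum lies at 0.744 to 0.822 of the wild type mean and the smooth muscle sum at 0.71 to 0.739, while the cardiomyocyte sum stays within the range of the wild type arrays or just below it.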

How the data were processed

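Per the labels, GenomeStudio and limma were the submitters' tools. The deposited files held a raw probe intensity per array and a table of log2 values, which the authors had background-corrected and quantile-normalized. Raw intensities were corrected here with normexp (offset 50), quantile-normalized and taken to log2. No detection p-values were used, and chip positions were not given in the sources used here. The files named 34885 of 45281 probe IDs with 1 gene symbol, 18 with several and 10378 with none, and symbols were updated to RefSeq. A mean was fitted to each of 3 groups (6 pooled wild type, 3 mild and 3 severe hearts) in limma 3.58.1 (R 4.3.3), with Benjamini-Hochberg adjustment over 30854 features and moderated 95% intervals. Replicates are separate hearts, whose small number limits the precision. On simulated mild line data of 30854 features, 36% of 1.25-fold, 90% of 1.5-fold and 100% of 2-fold changes were called. The simulation changed 50 features at each fold, all above the median level, with independent normal noise. In the real mild line 1096 features were called, so the adjustment differs and these rates need not hold for the data. The members, lists and tests were chosen with earlier results of these data known. Array by array values are given for the 16 called members with the largest difference and for features of the same gene that disagree. Of the other Z-disc genes, at most 4 called genes per direction and line were to be named; Hspb2, Hspb6, Hspb7, Hspb8 and Actn1 were added after their values were seen. Alternatives were the background offset, no correction, median scaling, the deposited values, array weights, variance trend, low signal, own littermates, a replicate block and leaving out each array. A comparison of protein sequences was not made here.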

Additional observations from a re-analysis of the deposited data

Results flagged for a closer look

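In 3 of 38 member features, 1 of the 6 wild type arrays lay far from the other 5, where chance alone would give about 1 in 20. Littermate replicate 1 of the severe line read 9.47 for Ldb3, the other wild type arrays 9.29 to 9.36. The same array read 10.03 for Flnc, the others 9.34 to 9.51. Littermate replicate 2 of the mild line read 5.71 for Neb, the others 6.03 to 6.10, all near the array median.

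The differences from own littermates were themselves different between the lines for 2 members. Crip2 was higher by 1.41 in the severe than in the mild line (adjusted p = 6.2e-07 in the limma fit with 4 group means), and the 3 severe arrays lay above the 3 mild arrays. Myot differed by -0.90 (adjusted p = 0.0021), with the 3 severe arrays below the 3 mild arrays.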

How the results depend on the processing

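No called member changed direction under any alternative tried, and of 37 calls (18 in the mild line, 11 in the severe line and 8 between the lines) 17 remained under every one except the 2-fold rule of the study's methods. With that rule 6 members were called in the mild line, 1 in the severe line and 1 between the lines. Over all features it called 83, 42 and 42. With a background offset of 16, 6 were called in the severe line and 2 between the lines. Against own littermates 2 were called between the lines, beside 82 of all features. Leaving out 1 array at a time gave 13 to 19 calls in the mild line, 7 to 12 in the severe line, 3 to 10 between the lines and 0 to 1 between the littermates. Correlations of same-numbered hearts ran from -0.244 to 0.056, and those of other pairs from -0.113 to 0.197. Such correlations on 3 hearts per group cannot settle whether the replicate numbers pair the samples. With the replicate block on own littermates, 13, 7 and 2 members were called in these comparisons, and 15 of the 37 calls were lost and none gained. Calls of dim features are limited by unknown signal over background. In the simulation, whose setting differs from the data, 36% of 1.25-fold changes were called, so that small changes can be missed with 3 hearts per line.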
